A study of Homo sapiens with 3 samples.

Results

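The genes described here are 36 genes of DNA damage signalling and repair, chosen by symbol from 19049 genes with a usable symbol in the deposited table. The rule that chose them uses their function and no measured value, though it was set with earlier results of these data known. Their link to the study is that KAP1 is itself a substrate of the kinases that respond to DNA damage. RNA was sequenced from MDA-MB-231, an established human breast cancer line of basal-like, mesenchymal character, whose own KAP1 (gene TRIM28) was depleted by a short hairpin RNA. All 3 groups carry that hairpin and differ in the KAP1 that was put back. It was the wild-type protein (wt), a form with alanine in place of the serine under study (S473A), which cannot be phosphorylated there, or a form with aspartate at that position (S473D), whose negative charge imitates a phosphate. Each group is 1 library, the labels do not say whether the cells are a pool or 1 clone, and a library with KAP1 depleted and nothing put back was not analysed here. Every difference below therefore describes a pair of libraries, has no replicate check and carries no p-value.

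Cells meet DNA damage with a layered response. The MRE11-RAD50-NBS1 complex and the kinases ATM and ATR sense breaks and stalled forks, pass the signal to CHEK1 and CHEK2, and mark the surrounding chromatin through MDC1, RNF8, RNF168 and TP53BP1. Repair then follows the kind of lesion: homologous recombination or end joining for broken ends, PARP-dependent repair for nicks, the Fanconi anaemia pathway for crosslinks, mismatch repair for replication errors and nucleotide excision repair for bulky adducts such as those left by ultraviolet light. KAP1, a corepressor brought to chromatin by KRAB zinc finger proteins, is phosphorylated during this response, and the serine exchanged in S473A and S473D is a known target of the checkpoint kinases.

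The promoters of the 4 repair genes that lay farthest from wt in S473D are printed first, since the results return to these genes. FANCD2 and XPC had the lowest differences and DDB2 and XRCC4 the highest. Each run is the 250 bases before an annotated transcript start, 5′ to 3′ on the gene's strand, from RefSeq in build GRCh38.p14, and capitals mark CCAAT (the NF-Y core), GGGCGG (bound by the SP family) or TTTCCCGC (an E2F motif) on either strand.
FANCD2 (chr3:10026187-10026436, plus strand): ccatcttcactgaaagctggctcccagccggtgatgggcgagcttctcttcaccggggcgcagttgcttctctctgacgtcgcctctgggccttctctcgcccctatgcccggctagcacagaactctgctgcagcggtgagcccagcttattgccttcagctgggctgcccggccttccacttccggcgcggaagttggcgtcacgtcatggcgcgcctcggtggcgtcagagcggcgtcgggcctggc
XPC (chr3:14178602-14178851, minus strand): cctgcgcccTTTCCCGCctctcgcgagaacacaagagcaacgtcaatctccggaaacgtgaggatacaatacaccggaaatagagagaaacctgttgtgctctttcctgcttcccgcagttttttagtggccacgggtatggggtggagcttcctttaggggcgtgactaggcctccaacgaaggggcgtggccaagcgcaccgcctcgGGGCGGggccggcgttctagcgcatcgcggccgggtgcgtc
DDB2 (chr11:47214204-47214453, plus strand): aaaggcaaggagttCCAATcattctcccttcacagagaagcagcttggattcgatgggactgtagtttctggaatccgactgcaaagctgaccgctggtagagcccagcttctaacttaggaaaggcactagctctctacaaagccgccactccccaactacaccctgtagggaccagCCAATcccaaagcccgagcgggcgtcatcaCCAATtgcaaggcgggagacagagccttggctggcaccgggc
DDB2 (chr11:47214724-47214973, plus strand): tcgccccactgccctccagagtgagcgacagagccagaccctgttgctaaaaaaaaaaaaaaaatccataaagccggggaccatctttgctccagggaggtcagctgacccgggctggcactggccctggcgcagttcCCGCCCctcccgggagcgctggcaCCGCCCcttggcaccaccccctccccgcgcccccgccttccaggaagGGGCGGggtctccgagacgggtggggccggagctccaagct
XRCC4 (chr5:83077297-83077546, plus strand): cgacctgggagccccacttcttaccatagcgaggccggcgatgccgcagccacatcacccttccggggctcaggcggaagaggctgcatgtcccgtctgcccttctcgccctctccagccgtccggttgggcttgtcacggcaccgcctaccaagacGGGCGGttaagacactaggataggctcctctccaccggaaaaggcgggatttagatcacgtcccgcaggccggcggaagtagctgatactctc
RefSeq lists DDB2 with 2 starts, of which the second also starts the transcript used for its length.

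All 4 genes lie downstream of GC-rich sequence, between 55.6% and 66.8% of bases in these 5 windows, but the motifs differ. The upstream DDB2 window holds CCAAT 3 times, at 236, 72 and 42 bases before the start, and the other DDB2 window holds GGGCGG 3 times, at 112, 88 and 41 bases. The XPC window holds TTTCCCGC at 241 bases and GGGCGG at 41 bases, XRCC4 holds 1 GGGCGG at 93 bases, and FANCD2 holds none of the motifs searched. Over the 31 repair genes with a promoter in the table, GGGCGG stood in 25 (80.6%), against 46.2% of all 27305 genes with promoters of the same length in the table, and CCAAT in 19 (61.3%), against 37.0%. An E2F motif (TTTCCCGC, TTTGGCGC or TTTCGCGC) stood in 1 of the 31, XPC, against 2.85% of all genes, and the ZNF143 core in 0 of 31, against 0.275%. These are matches of letters, counted once per gene over all its listed starts. Many of the genes in the table are not expressed in these cells, and the repair genes were not set against expressed genes alone.

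TRIM28, the message depleted by the hairpin and supplied again, read 28.7, 32.3 and 25.6 RPKM in wt, S473A and S473D, where RPKM counts reads scaled to gene length and to library depth. The reads of the remaining cellular message and of the re-expressed one were not told apart in this table, so these values do not check the labels. Most markers of the line were in place: VIM read 673 to 740.01 RPKM, CD44 119 to 156 and AXL 87.9 to 125, while PGR stayed at or under 0.0038, ESR1 at or under 0.24 and CDH1 at or under 0.225. SPARC, listed as high, went against that with 0.128 to 0.208 RPKM, and ERBB2, GATA3 and FOXA1, listed as low, read 5.34 to 7.94, 1.45 to 1.83 and 1.41 to 1.96. Of 6 fibroblast markers measured, COL1A1 read 1.63 to 1.66 RPKM and the other 5 at most 0.243, and the leukocyte markers PTPRC and CD14 read at most 0.175. The estimated depth, read off the spacing of the lowest values, was 25700000, 29400000 and 23900000 reads in wt, S473A and S473D.

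All 36 repair genes were expressed above 1 RPKM on average, between the 21.2 and the 98.5 percentile of the genes compared. Their median level was 10.1 RPKM, against 9.97 over the 11571 genes compared, and 18 of the 36 lay above that median. XRCC6, which encodes the Ku70 subunit of the ring that grips broken ends, was the highest by far, with 252, 259.7 and 274 RPKM in wt, S473A and S473D. Its partner XRCC5 (Ku80) came next in mean level, followed by DDB1, an adaptor of the CUL4 ubiquitin ligase, and PARP1, the main poly(ADP-ribose) polymerase. The lowest was BRCA2, which loads the recombinase onto resected DNA, with 3.83, 3.98 and 2.96 RPKM in wt, S473A and S473D. RAD50 and PPM1D stood just above it in mean level, and 9 of the 36 reached a mean of 20 RPKM.

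**Figure D1:**
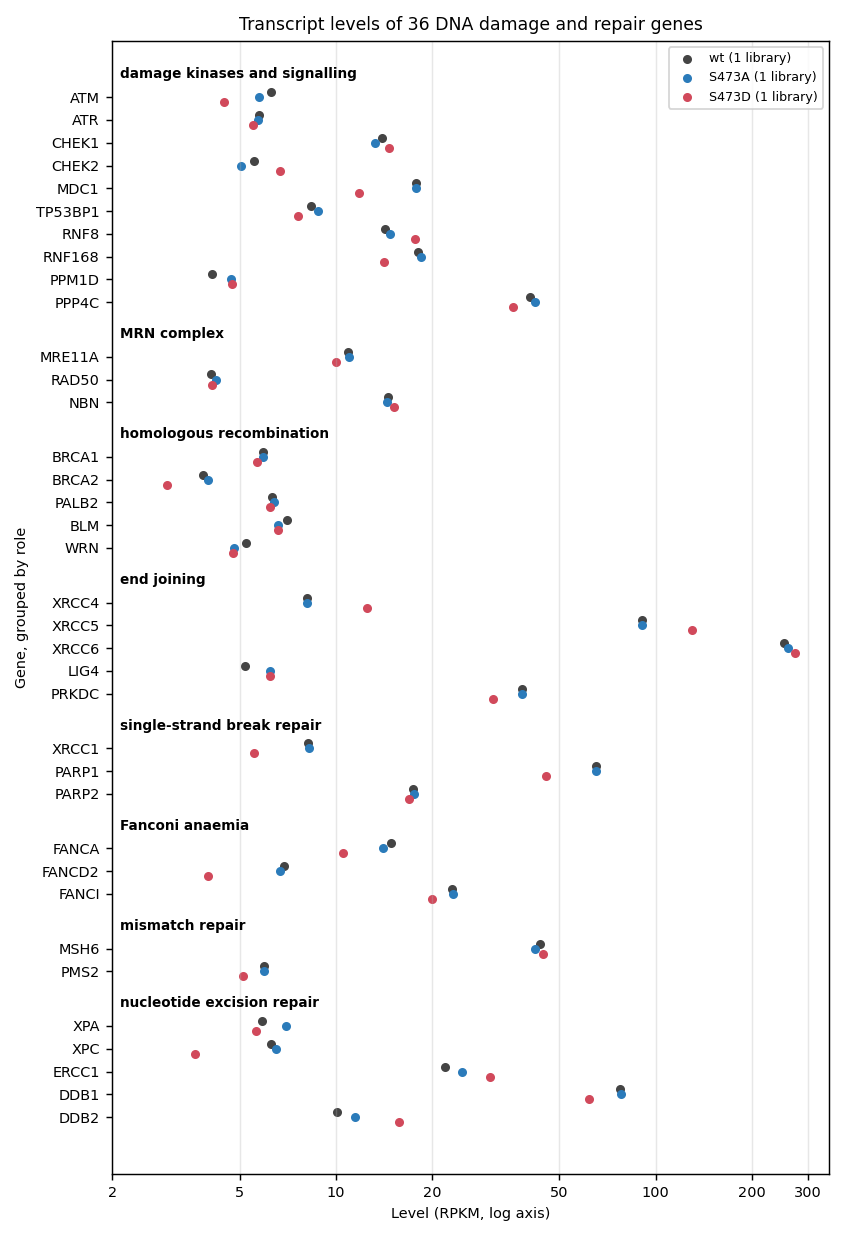
Level of each of the 36 repair genes in each library, in RPKM on a log axis, grouped by role, with 1 point per library (wt dark grey, S473A blue, S473D red). In most rows the wt and S473A points lie close together and the S473D point lies apart, to the right for XRCC5, ERCC1 and DDB2 and to the left for FANCD2, XPC and PARP1.

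In S473D, the repair genes scattered in both directions with a lean to lower values that all genes shared. Differences were taken on log2(RPKM + 1), which understates the fold change of low genes. Of the 36 genes, 13 were above wt and 23 below, with a median difference of -0.07 on that scale, against -0.10 over all 11571 genes, of which 60.7% were below. DDB2 was the 1 repair gene at least 1.5-fold higher on that scale, where 6.83% of all genes passed the same size, and FANCD2 and XPC were the 2 at least 1.5-fold lower, where 3.23% of all genes passed it. None of the 36 reached 2-fold, a size passed by 0.994% of all genes upward and 0.0951% downward. XRCC4 and MDC1 lay just under the line: their plain RPKM ratios were past 1.5-fold, at 1.54 and 0.665, but their differences on the log2 scale were 0.57 and -0.55. The shares of repair genes past each size are thus close to those of all genes or rest on 1 or 2 genes, and the spread of the 36 differences (SD 0.33) was no wider than that of all genes (SD 0.37). With all differences centred on their median, 19 of the 36 were above 0 and 17 below, and the calls of FANCD2 and XPC ended, leaving 0 genes at least 1.5-fold lower and 3 higher (DDB2, XRCC4 and XRCC5), as also with trimmed-mean scaling. In bulk RNA, fewer cells of a kind and less RNA per cell cannot be told apart.

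In S473A the same genes stayed within a narrow band around wt. Their differences ran from -0.11 for CHEK2 to 0.22 for XPA, with a median of 0.01, 21 above and 15 below. The SD was 0.08, beside 0.10 over all genes, so the repair genes shared this narrow spread with the rest. None was 1.5-fold away from wt in either direction, where 0.0951% of all genes were higher by that size and 0.147% lower. The S473D library was outside the range of the other 2 for 35 of the 36 genes, highest for 12 and lowest for 23, against 35.7% and 57.2% of all genes.

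**Figure D2:**
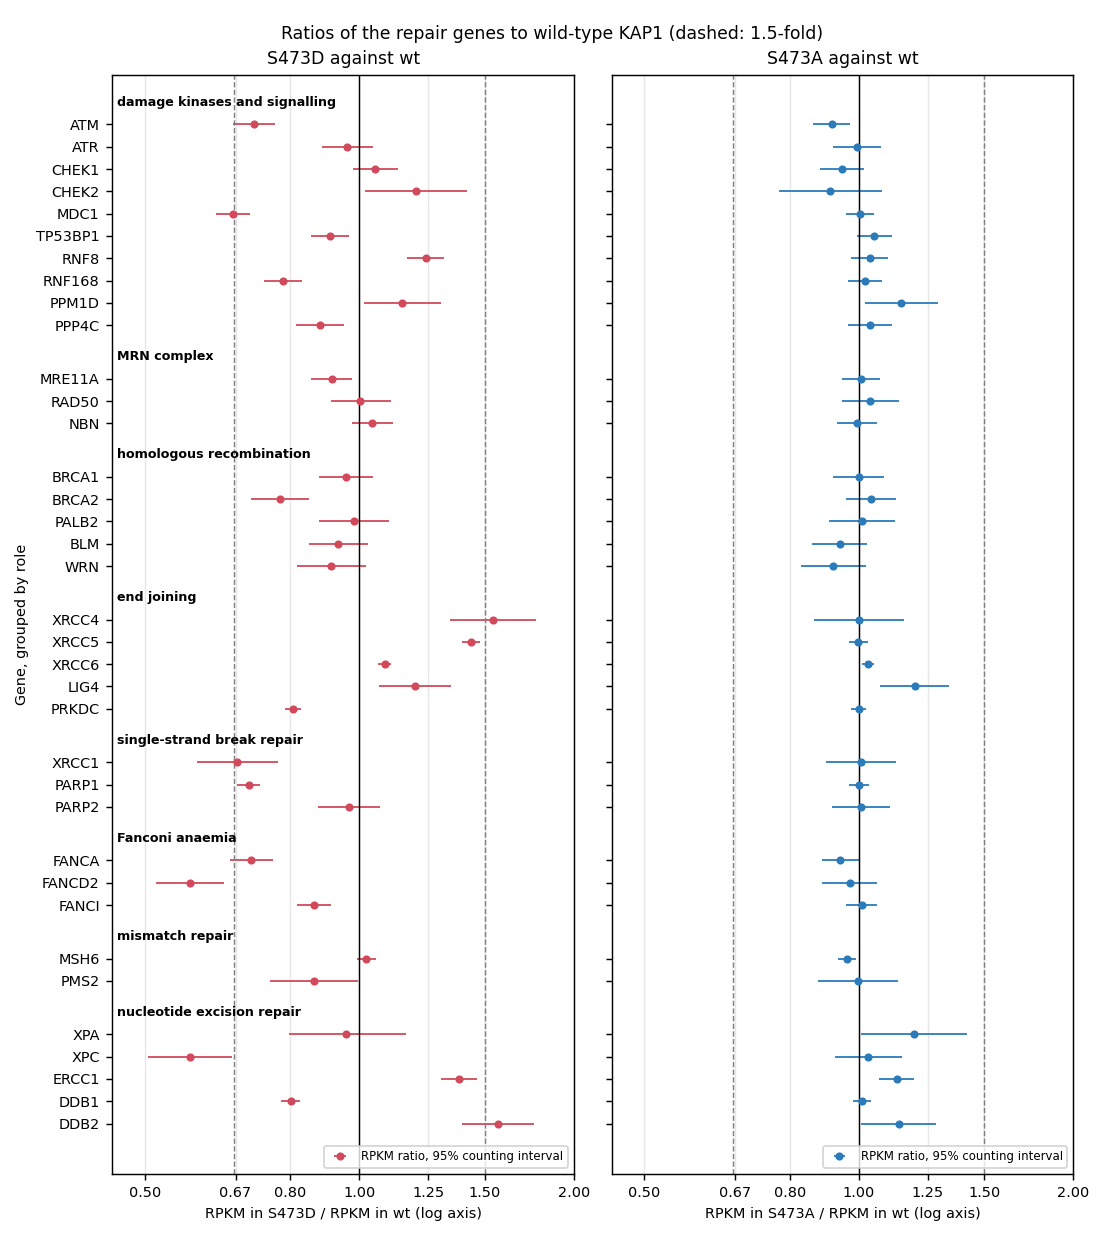
Ratio of RPKM to wt for each repair gene in S473D (left, red) and S473A (right, blue), on a log axis, with exact 95% counting intervals as bars and dashed lines at 1.5-fold in either direction. The S473A ratios stay between 0.911 and 1.197, while the S473D ratios run from 0.578 for XPC to 1.56 for DDB2.

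Among the kinases and signalling genes, ATM and the chromatin mediator MDC1 were lower in S473D, while the ubiquitin ligase RNF8 was higher. ATM, the kinase activated by broken ends, read 6.26, 5.73 and 4.46 RPKM in wt, S473A and S473D, a ratio of S473D to wt of 0.712 (95% counting interval 0.665 to 0.762). It was also lower in S473A, by less, with a ratio to wt of 0.916 (0.862 to 0.973). These intervals come from estimated read numbers and cover counting error only, not the spread between cultures. ATR, its relative at stalled forks, read 5.74, 5.71 and 5.52 RPKM in the same order. The ratio of the ATM level to the ATR level was thus 1.09 in wt, 1.005 in S473A and 0.808 in S473D. CHEK1, the checkpoint kinase downstream of ATR, read 14.0, 13.2 and 14.7 RPKM, with an S473D ratio of 1.05 (0.979 to 1.13) that includes 1. CHEK2, downstream of ATM, read 5.55, 5.06 and 6.67 RPKM, a ratio of 1.201 (1.02 to 1.42).

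MDC1, the scaffold that reads phosphorylated H2AX, read 17.81 RPKM in wt and 17.87 in S473A against 11.8 in S473D, a ratio of 0.665 (0.630 to 0.702). The ligases that act after it lay on opposite sides of wt. RNF8 read 14.2, 14.8 and 17.7 RPKM, a ratio of 1.24 (1.17 to 1.32), and RNF168, which extends the ubiquitin mark on histones, read 18.1, 18.4 and 14.1, a ratio of 0.780 (0.734 to 0.829). TP53BP1, which binds that mark and restrains resection, read 8.35, 8.78 and 7.60 RPKM, a ratio of 0.910 (0.855 to 0.968). Exons of TUBGCP4 cover 28.7% of its exon bases, and GENCODE lists 4 pseudogenes named after CHEK2, so both levels are uncertain. Of the phosphatases that end the signal, PPM1D (WIP1) read 4.11, 4.71 and 4.72 RPKM and was thus about as high in S473A as in S473D, with ratios to wt of 1.15 in both (1.02 to 1.29 in S473A and 1.02 to 1.30 in S473D). PPP4C, the catalytic subunit of a phosphatase that acts on KAP1, H2AX and RPA, read 40.6, 42.1 and 35.7 RPKM, a ratio of 0.879 (0.814 to 0.950). Over the 10 genes of this role, 4 were above wt and 6 below in S473D, with a median difference of -0.08, and 5 were above and 5 below once all genes were centred on their median.

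The MRN complex, which tethers and trims broken ends, differed little between libraries. MRE11A, its nuclease, read 10.9, 11.0 and 9.97 RPKM in wt, S473A and S473D, and the S473D ratio was 0.914 (0.855 to 0.976); GENCODE lists 1 pseudogene named after it. RAD50, its tether, read 4.07, 4.23 and 4.08 RPKM, and NBN, which recruits ATM, read 14.6, 14.5 and 15.2. The S473D intervals of RAD50 (0.911 to 1.11) and NBN (0.975 to 1.12) include 1. GENCODE places other coding genes over 79.7% of the exon bases of RAD50, and the strand used in counting is not given in the sources used here, so its level is uncertain.

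All 5 genes of homologous recombination were below wt in S473D, by small amounts apart from BRCA2, but BRCA1, PALB2 and BLM lay above 0 once all genes were centred or scaled by a trimmed mean. BRCA2 had a ratio of 0.772 (0.704 to 0.848) at the levels given above, while BRCA1, which promotes resection, read 5.91 RPKM in wt and in S473A and 5.66 in S473D. The ratio of BRCA2 to BRCA1 was accordingly 0.648, 0.673 and 0.522 in wt, S473A and S473D. PALB2, the bridge between these proteins, read 6.32, 6.38 and 6.21 RPKM, a ratio of 0.982 (0.877 to 1.10). The helicases BLM and WRN, which resolve recombination and fork structures, were lower in both mutant libraries, though BLM in S473D was above 0 when centred. BLM read 7.04, 6.61 and 6.58 RPKM and WRN 5.22, 4.81 and 4.77, and all their intervals against wt include 1.

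In end joining, the role with the largest share of genes higher in S473D, 4 of 5 lay above wt, with a median difference of 0.22, against 4 of 5 and 0.04 once the trends with length and GC content of the transcripts were taken out. XRCC4, the scaffold of the ligation complex, read 8.11, 8.12 and 12.5 RPKM in wt, S473A and S473D, a ratio of 1.54 (1.34 to 1.77). Its difference of 0.57 on the log2 scale was 0.04 with the trends removed. LIG4, the ligase it holds, read 5.203 RPKM in wt and 6.23 in both mutant libraries, so that it was 1.197 times wt in each (1.07 to 1.34 in both). As deposited, the wt library is thus the low one for LIG4 and S473D the high one for XRCC4. The ratio of XRCC4 to LIG4 was 1.56, 1.30 and 2.01 in wt, S473A and S473D. With the trends removed, LIG4 differed from wt by 0.03 in S473D and by 0.23 in S473A.

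XRCC5, the Ku80 subunit, read 91.0, 90.9 and 130.4 RPKM in wt, S473A and S473D, a ratio of 1.43 (1.39 to 1.48). XRCC6, its Ku70 partner, had a ratio of 1.09 (1.06 to 1.11), and the ratio of the XRCC5 level to the XRCC6 level was 0.361, 0.350 and 0.476 in wt, S473A and S473D. GENCODE lists 5 pseudogenes named after XRCC6, whose reads may be shared with it. PRKDC, the catalytic subunit of the kinase that Ku activates, went the other way, with 38.3, 38.2 and 30.9 RPKM in wt, S473A and S473D, a ratio of 0.808 (0.787 to 0.829). PRKDC has the longest transcript of the 36, at 13509 bases, and XRCC4 the third shortest, at 1696 bases.

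Of the genes that repair nicks and lost bases, the sensor PARP1 and the scaffold XRCC1 were lower in S473D by similar amounts. PARP1 read 65.24, 65.23 and 45.6 RPKM in wt, S473A and S473D, a ratio of 0.699 (0.672 to 0.726). GENCODE lists 2 pseudogenes named after it, which may share reads. XRCC1, which PARP activity brings to the nick, read 8.21, 8.26 and 5.53 RPKM, a ratio of 0.674 (0.591 to 0.769). The PARP1 to XRCC1 ratio of levels accordingly stayed near 8 (7.95, 7.90 and 8.25 in wt, S473A and S473D). PARP2, a second polymerase of the family, lay close to wt on the deposited scale, with 17.5, 17.6 and 16.9 RPKM and a ratio of 0.967 (0.875 to 1.07). Its transcript is short, at 1886 bases, and its difference went from -0.05 to -0.32 when length and GC trends were removed, beside -0.38 for PARP1 and -0.39 for XRCC1. Centring on the median left PARP1 and XRCC1 below 0 and put PARP2 above it.

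All 3 Fanconi anaemia genes were below wt in S473D as deposited, and stayed below 0 with centring and with trimmed-mean scaling. With length and GC trends removed, all 3 lay below the median of all genes, which that step keeps at -0.10. FANCD2, which is ubiquitinated at crosslinks and clamps DNA together with FANCI, had the lowest difference of all 36 genes. It read 6.88 RPKM in wt and 6.68 in S473A against 3.98 in S473D, a ratio of 0.579 (0.518 to 0.646) and a difference of -0.66, or -0.59 with trends removed. GENCODE lists 1 pseudogene named after FANCD2, which may share reads, and FANCD2OS covers 3.12% of its exon bases. FANCI read 23.1, 23.3 and 19.9 RPKM, a ratio of 0.863 (0.817 to 0.913), so the ratio of the FANCD2 level to the FANCI level was 0.298, 0.287 and 0.1996 in wt, S473A and S473D. FANCA, part of the core ubiquitin ligase, read 14.9, 14.0 and 10.5 RPKM, a ratio of 0.705 (0.658 to 0.755). The FANCA difference of -0.47 was -0.16 after trends were removed, its transcript being 5451 bases long with 55.4% GC. Exons of ZNF276 cover 23.6% of the exon bases of FANCA, and ZNF276 itself read 5.79, 6.05 and 4.95 RPKM in wt, S473A and S473D.

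Of the mismatch repair genes, MSH6, a subunit of a complex that recognises mispairs, read 43.4, 41.8 and 44.4 RPKM in wt, S473A and S473D, and its S473D interval (0.992 to 1.05) includes 1. Exons of FBXO11 cover 16.2% of its exon bases. PMS2, the nuclease of the MutL complex, read 5.95, 5.94 and 5.14 RPKM, a ratio of 0.863 (0.748 to 0.9954). PMS2 has 11 pseudogenes named after it in GENCODE, so its reads may be split between copies.

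Nucleotide excision repair held the widest contrast of any role, with DDB2 at the top of the 36 genes in S473D and XPC next to the bottom. Both proteins recognise lesions across the genome, including DNA that is not transcribed. DDB2, which binds ultraviolet lesions and is a target gene of p53, read 10.1, 11.45 and 15.8 RPKM in wt, S473A and S473D, a ratio of 1.56 (1.39 to 1.76). DDB1, its partner in the damage-binding complex, was lower, at 77.2, 77.9 and 61.8 RPKM with a ratio of 0.8002 (0.775 to 0.826), and the ratio of the DDB2 level to the DDB1 level was 0.130, 0.147 and 0.255 in wt, S473A and S473D. XPC, to which DDB2 hands over the lesion, read 6.28, 6.48 and 3.63 RPKM, a ratio of 0.578 (0.504 to 0.661). With trends removed the differences of DDB2 and XPC were 0.49 and -0.48.

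ERCC1, a subunit of the nuclease that cuts on the 5′ side of the lesion, read 21.99, 24.9 and 30.4 RPKM in wt, S473A and S473D, a ratio of 1.38 (1.30 to 1.46). The transcript used for ERCC1 is 3828 bases long and GC-rich, at 56.1%. Removing the trends on both raised its difference from 0.45 to 0.66, past the 1.5-fold line. That value and the counting interval depend on the transcript chosen by its length, and shorter isoforms of ERCC1 were not tried. Exons of CD3EAP and FOSB cover 28.6% of its exon bases. CD3EAP read 8.21 RPKM in wt and 6.82 in S473D, and FOSB 0.258 and 0.237. The corresponding neighbour of XPC is LSM3, which with a second gene covers 15.2% of the exon bases of XPC and read 54.6 RPKM in wt and 80.0 in S473D. How reads on shared bases were counted is not known, and the part of these neighbours in the levels of ERCC1 and XPC was not tested. XPA, which verifies the lesion, read 5.86, 6.99 and 5.61 RPKM, and its S473D interval (0.795 to 1.16) includes 1. In S473A all 5 genes of this role were above wt, with a median difference of 0.17, while 49.8% of all genes were above wt and the other 21 genes listed for this pathway split into 10 above and 11 below. The S473A ratios were 1.13 for ERCC1 (1.07 to 1.197), 1.14 for DDB2 (1.01 to 1.28) and 1.19 for XPA (1.01 to 1.42), while those of XPC and DDB1 were 1.03 (0.924 to 1.15) and 1.01 (0.981 to 1.04).

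Set against S473A, S473D gave nearly the same picture for the repair genes, and both comparisons share the S473D library. Of the 36 genes, 12 were above S473A and 24 below, with a median of -0.05 against -0.10 over all genes. XPC (-0.69) and FANCD2 (-0.62) were again at least 1.5-fold lower, a size passed by 3.0% of all genes. None was 1.5-fold higher, where 6.86% of all genes were, and DDB2, which was also above wt in S473A, stood at 0.43. None reached 2-fold, where 1.0% of all genes were higher and 0.13% lower. LIG4 and PPM1D, higher than wt in both mutant libraries as deposited, differed by 0.00 between them, or by -0.20 and 0.06 with length and GC trends removed.

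Transcript length moved with the S473D differences, over all genes and over the repair genes. Across 11280 genes with a GENCODE transcript, the Spearman correlation of the difference from wt with length was -0.44 and with GC content -0.26, and over the 36 repair genes these were -0.33 and -0.27. Genes within a library are not independent and share its depth and composition, so these are descriptions. For S473A the correlation with length was -0.01 over all genes and -0.22 over the 36. Repair genes are long, with a median transcript of 4704.5 bases against 3218.5 over all genes, and AT-rich, with a median GC content of 43.8% against 48.4%. The 18 repair genes with the shorter transcripts were split evenly, 9 above wt and 9 below in S473D, with a median of 0.02. Of the 18 with the longer ones 4 were above and 14 below, with a median of -0.12. ATM, PRKDC, BRCA2 and TP53BP1, the 4 with the longest transcripts, were all below wt. The part of length in these differences was not tested beyond removing its trend.

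**Figure D3:**
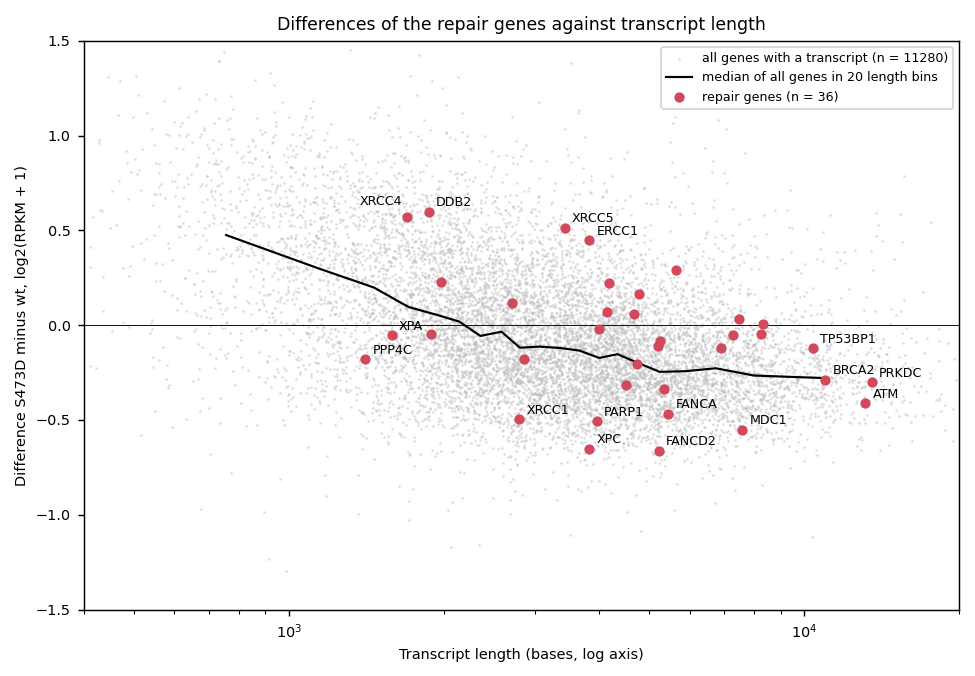
Difference S473D minus wt on log2(RPKM + 1) against transcript length in bases (log axis), with all genes in grey, their median in 20 length bins as a line and the 36 repair genes in red. The line falls from short to long transcripts; 53 of the 11280 grey genes lie outside the axes, and FANCD2, XPC, XRCC5 and ERCC1 lie well off the line.

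Removing the length and GC trends left 13 of the 36 above 0 and 23 below, with a median of -0.09, beside -0.10 over all genes. That step keeps the all-gene median, and 18 of the 36 lay above it. ERCC1, by the long transcript used for it, was then the 1 gene at least 1.5-fold higher, and FANCD2 the 1 at least 1.5-fold lower. XRCC4 lost nearly all of its difference, from 0.57 to 0.04, and MDC1 much of it, from -0.55 to -0.23, whereas XPA gained one, from -0.05 to -0.48. PPP4C, with the shortest transcript of the 36, went from -0.18 to -0.38. XRCC5 went from 0.51 to 0.42, RNF8 from 0.29 to 0.37, PARP1 from -0.51 to -0.38 and ATM from -0.41 to -0.37. CHEK2 (0.23 to -0.01), TP53BP1 (-0.12 to 0.07), NBN (0.06 to -0.07) and BRCA1 (-0.05 to 0.01) changed sign. Over all genes, 790 were at least 1.5-fold higher in S473D and 374 lower as deposited, 192 and 368 with trends removed, and 1105 and 128 when centred on the median, so the balance of the 2 directions depends on the scaling.

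**Figure D4:**
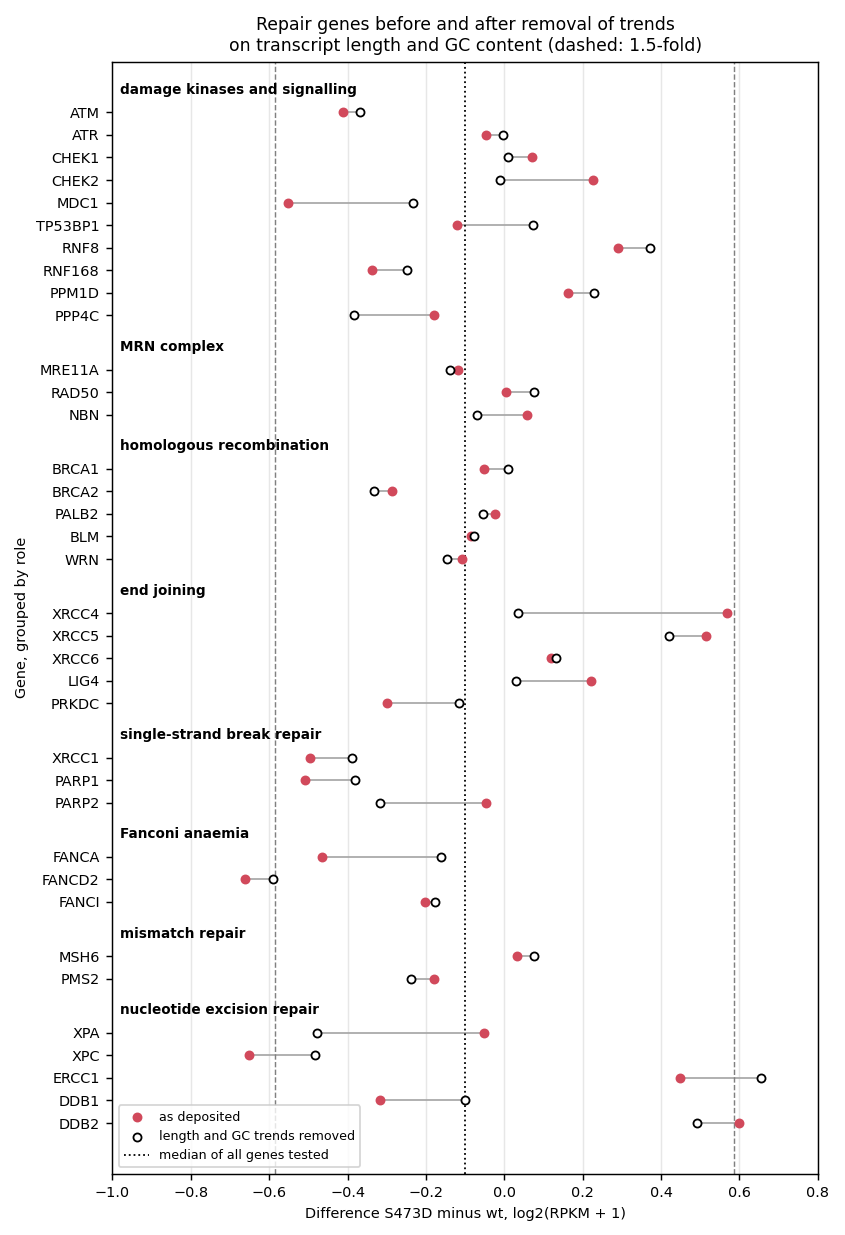
Difference S473D minus wt for each repair gene on log2(RPKM + 1), as deposited (red) and after removal of trends on transcript length and GC content (open circles), with the median of all genes dotted and 1.5-fold dashed. Long grey lines mark genes whose difference depends on the correction, such as XRCC4, XPA and MDC1, and short ones those that keep most of it, such as FANCD2, ATM and XRCC5.

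The other genes of the same pathways, 155 in 9 lists, gave 153 that passed the expression minimum. In S473D 64 of them were above wt and 89 below, with a median of -0.07, the same as for the 36. At least 1.5-fold higher were 9 of the 153, beside the 6.83% of all genes, and 1 was lower by that size, beside 3.23%. With length and GC trends removed, 1 of the 150 that had a transcript was higher by that size (RPA3) and 2 lower (KAT5 and RMI2). In S473A 79 were above wt and 74 below, and none was 1.5-fold away. The genes past 1.5-fold, other than those at the ends of their lists, are named because they passed that size, which was seen first.

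The other homologous recombination genes (31) had a median of -0.08 and the one gene past 2-fold, RPA3, the small subunit of the protein that coats single-stranded DNA. RPA3 read 14.5, 14.2 and 30.3 RPKM in wt, S473A and S473D, a ratio of 2.09 (1.91 to 2.29) and 0.79 on the log2 scale with trends removed. RAD51AP1 (0.80), RAD51C (0.76) and SHFM1 (0.64), which works with BRCA2, were also at least 1.5-fold higher, beside 6.83% of all genes. With trends removed, RAD51AP1 and RAD51C were at 0.36 and 0.55, short of that size, and SHFM1 had no transcript to correct by. RMI2, a partner of BLM, was the lowest of the well expressed genes, at -0.41. Of these 31 genes 10 were above wt and 21 below, against 16 and 15 when centred. Of the other checkpoint and signalling genes (27), 9 were above wt and 18 below (66.7%, beside 60.7% of all genes), or 10 and 17 when centred. Their median was -0.18, and they ran from KAT5 (-0.61), the acetyltransferase TIP60 that activates ATM, to TTI2 (0.37), a chaperone of ATM-family kinases. KAT5 read 19.5, 18.0 and 12.4 RPKM in wt, S473A and S473D.

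Of the other end joining genes (11), 4 were above wt and 7 below, with a median of -0.05, against 6 and 5 when centred. The highest of the well expressed genes was C9orf142 (0.38), which encodes PAXX. Of the other Fanconi anaemia genes (16), 7 were above wt and 9 below, with a median of -0.03, against 10 and 6 when centred. UBE2T, the E2 enzyme that ubiquitinates FANCD2, read 29.9, 31.2 and 49.7 RPKM, and its difference of 0.71 was 0.05 once length and GC trends were removed, its transcript being 908 bases long. C17orf70, a core complex subunit, was the lowest of the well expressed genes, at -0.18.

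Base excision repair (20 genes) was the list with the highest median, 0.10, with 11 genes above wt and 9 below. Once trends were removed its median was -0.05, beside -0.10 over all genes. The glycosylase MPG read 25.8, 27.5 and 41.6 RPKM (difference 0.67), SMUG1 was at 0.62, and the glycosylase NEIL2 was lowest, at -0.43. MPG and SMUG1 were thus 2 of 20 genes at least 1.5-fold higher, beside 6.83% of all genes. With trends removed they were at 0.45 and 0.54, short of 1.5-fold. In nucleotide excision repair, the 21 other genes had 10 above wt and 11 below, with a median of -0.04. Of these, 2 were at least 1.5-fold higher, beside 6.83% of all genes. They were MNAT1 and CCNH, which with CDK7 form the kinase module of TFIIH. MNAT1 read 31.2, 29.1 and 54.9 RPKM, a ratio of 1.76 (1.67 to 1.86), and CCNH 23.8, 24.7 and 39.1. With trends removed they were at 0.47 and 0.27, short of 1.5-fold. CUL4A, the cullin of the DDB1 ligase, was lowest, at -0.51, with 26.1, 27.8 and 18.1 RPKM. Of the other mismatch repair genes (5), 2 were above wt and 3 below, and PMS1 was the lowest of the well expressed ones, at -0.07.

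**Figure D5:**
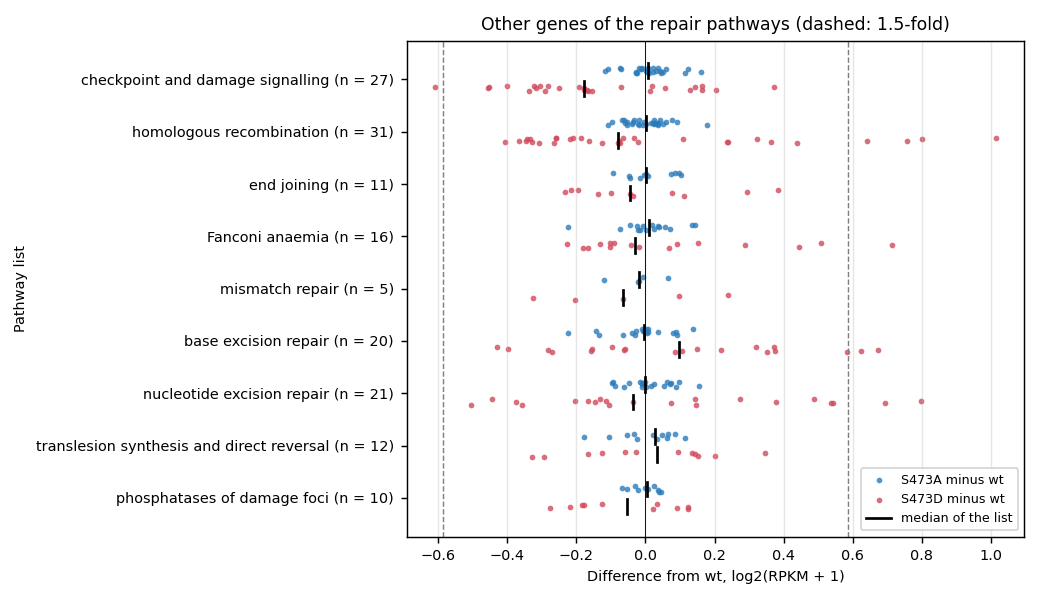
Differences from wt on log2(RPKM + 1) for the other genes of 9 repair and signalling lists, with 1 point per gene (S473A blue, S473D red), the list's median as a bar and 1.5-fold dashed. The S473A points stay close to 0 in every list, while the S473D points spread to both sides, with RPA3 past 1.0.

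Cell cycle genes were measured beside the repair genes, many of which are known to vary in level through the cycle. Of 10 proliferation markers 4 were above wt and 6 below in S473D, with a median of -0.11, beside -0.10 over all genes. PCNA, the sliding clamp, read 115.02, 116.8 and 224 RPKM in wt, S473A and S473D, and the kinase CDK1 71.4, 71.9 and 133.9. MKI67 went the other way, with 53.0, 54.4 and 33.7 RPKM, and TYMS differed by -0.42 on the log2 scale between wt and S473D. E2F1 differed by -0.12 and CCNB1 by 0.04. On the log2 scale, removing the length and GC trends took PCNA from 0.95 to 0.53 and CDK1 from 0.90 to 0.38. MKI67 went from -0.64 to -0.38, TYMS from -0.42 to -0.65, E2F1 from -0.12 to -0.03 and CCNB1 from 0.04 to -0.22. The markers thus did not shift in 1 direction, and their part in the differences of the repair genes was not tested.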

How the data were processed

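Per the labels' protocols, total RNA was isolated in TRIzol and Illumina's standard library preparation followed. Bowtie, Partek and build hg19 are named in the submitters' processing notes; the sources used here do not give versions, annotation, strand or counting rule. The deposited values are log2 of RPKM, and since the lowest is -3.32, the log2 of 0.1, the authors were taken to have added 0.1, which was undone here. Of 19076 lines 27 were left out (dates in place of symbols, repeated symbols). Genes that averaged 1 RPKM or more were compared, without 177 short RNAs, leaving 11571. Each comparison is a difference of log2(RPKM + 1) between 2 libraries, called at 1.5-fold, with 2-fold counted too. RPKM is relative to the whole library, so it keeps shifts in composition and any length preference.

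Reads per gene were estimated from RPKM, GENCODE 29 transcript lengths (all 36 repair genes and 97.5% of genes compared had one) and depths fitted to the value of 1 read in 2676 low genes. Only 45.4% to 46.6% of low values came out whole within 2%, so depths are estimates, no count model was fitted, and the exact 95% intervals of ratios cover counting error only. Length and GC trends were removed by lowess (fraction 0.2, 2 rounds), keeping the overall median. Overlaps and pseudogenes come from GENCODE 29 and promoters from RefSeq (31 of 36 genes matched). The scripts (Python 3.11.15, scipy 1.17.1, statsmodels 0.14.6) were tested on simulated data.

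The 36 genes and the other lists were chosen with earlier results of these data known. All 36 are named, and of each pathway list the highest and lowest difference S473D minus wt among those averaging 5 RPKM or more ("well expressed"); some of these are not reported here. The alternatives were pseudocounts of 0.1 and 0.5, no filter, a mean of at least 5 RPKM, median centring, trimmed-mean scaling (30% of ratios and 5% of levels), short RNAs kept, and trends removed.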

Additional observations from a re-analysis of the deposited data

How the results depend on the processing

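No paired analysis was possible because each group has 1 library, and for the same reason no library could be left out. For S473D minus wt, the 1 repair gene at least 1.5-fold higher became 2 with a pseudocount of 0.1 or 0.5 (XRCC4 joined DDB2) and 3 with median centring or trimmed-mean scaling (XRCC5 too). The 2 at least 1.5-fold lower became 3 with a pseudocount of 0.1 (MDC1 joined), 0 with centring or scaling and 1 with trends removed, and all genes past that size went from 1164 to 560 with trends removed. For S473D minus S473A, the median of -0.05 became 0.048 with centring and 0.046 with scaling, and the genes above 0 went from 12 to 19. The 0 genes higher became 1 with either pseudocount and 2 with centring or scaling, and the 2 lower (XPC and FANCD2) became 3 with a pseudocount of 0.1, 1 with centring or scaling (XPC), and 1 with trends removed, which was XPA (-0.71) in place of both. All genes past 1.5-fold there went from 1141 to 1721 with a pseudocount of 0.1 and to 572 with trends removed. For S473A minus wt, the 28 of all genes past 1.5-fold became 66 with a pseudocount of 0.1, 9 at a mean of at least 5 RPKM and 77 with short RNAs kept, while none of the 36 passed that size under the alternatives run. Centring shifted all S473D differences from wt by 0.10. The sign of S473D minus wt held for 30 of 36 genes under centring and scaling (not ATR, BLM, BRCA1, PALB2, PARP2 and XPA) and for 32 of 36 with trends removed. The cause of these shifts was not tested. The lowest genes limit precision: XPA rests on an estimated 238 reads in wt and CHEK2 on 281.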

Other observations

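Genes that bypass or directly reverse DNA damage differed little between the libraries. Of 13 listed, 12 were expressed above the minimum, and in S473D 6 were above wt and 6 below, with none 1.5-fold away, beside 6.83% of all genes higher and 3.23% lower by that size. With length and GC trends removed, 4 were above and 8 below, with a median of -0.11, beside -0.10 over all genes. Of these 12 genes, 5 lay above that all-gene median. The highest of the well expressed genes was UBE2A (0.35 on the log2 scale), an E2 enzyme that with RAD18 ubiquitinates PCNA, at 33.3, 33.9 and 42.6 RPKM in wt, S473A and S473D. The lowest of the well expressed genes was the translesion polymerase POLK (-0.17), at 5.60, 5.13 and 4.88 RPKM. Over all 12 genes the lowest was REV3L, at -0.33. MGMT, which removes alkyl groups from guanine, was all but absent, with 0.031 RPKM in wt, 0.027 in the S473A library and a listed value of 0 in S473D.

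Apart from PPM1D and PPP4C, described above, the listed phosphatases that act on phosphorylated KAP1 and on damage foci also lay close to wt. Of 11 listed, 10 passed the minimum, with 5 above wt and 5 below in S473D and none 1.5-fold away, beside 6.83% of all genes higher and 3.23% lower. With length and GC trends removed, 1 was above and 9 below, with a median of -0.15, beside -0.10 over all genes. Of these 10 genes, 3 lay above that all-gene median. They ran from SMEK2 (-0.28), a regulatory subunit of protein phosphatase 4, at 24.1, 24.7 and 19.7 RPKM in wt, S473A and S473D, to PPP1CB (0.12), a catalytic subunit of protein phosphatase 1, at 45.1, 43.4 and 49.2.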
